A study of Rattus norvegicus with 6 samples.

Results

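The genes described here are those used to sort mammary stem and progenitor cells: Cd24, Prom1, Aldh1a3, Aldh1a1, Elf5, Kit, Cd44, Procr, Thy1 and Abcg2. They were taken by name, through every probe set that the platform annotation gives to one of them alone. All 10 had such a probe set, 12 in all, among 14217 genes represented on the arrays. Where a gene had several, the brightest by its mean over the 6 arrays stood for it.

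RNA came from mammospheres, floating balls of cells that form when dissociated mammary cells are denied a surface to attach to. One group, hCG, came from female Sprague Dawley rats injected intraperitoneally with 100 IU of recombinant human chorionic gonadotropin a day, from 55 days of age, for 21 days. The other group, Control, came from rats of the same strain, sex and age given phosphate buffered saline on the same schedule. In both groups mammary glands 4 and 5 of 3 animals were removed 21 days after the last injection, and cells enriched for epithelium were cultured for 7 days with EGF, basic FGF and heparin. Spheres held back by a 40 µm strainer were used. The question was how spheres formed after hormone exposure had ended differ from control spheres. Each group had 3 arrays, numbered 5, 6 and 7, and whether an array stands for 1 animal is not stated. The p-values therefore cover sample-to-sample spread, which may be partly technical.

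The mammary duct has an inner luminal layer, which holds the milk-forming and hormone-sensing cells, and an outer basal layer of contractile cells. Basal cells, sorted by their surface proteins, can regrow a gland when transplanted in mice, while luminal progenitors feed the luminal layer. CD24 and CD133 (Prom1) are carried by luminal cells in mice, though CD24 is not limited to them. KIT and aldehyde dehydrogenase activity are used for luminal progenitors. CD44, EPCR (Procr) and Thy1 are used on the basal or stem cell side, and Abcg2 pumps out the dye that defines side population cells.

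Of the 10 genes, 7 had a mean above the filter level of 2.67 on the log2 scale, below which the dimmest 40% of probe sets lay. Cd24 fell, and it was the only one of the 7 to pass limma's test with Benjamini-Hochberg adjustment over all 10424 tested genes. In that comparison 1.82% of all tested genes passed (190 genes), 0.815% as lower in hCG and 1.01% as higher. In 3 of the 7, Cd24, Cd44 and Procr, every hCG value lay below every Control value, as in 12.3% of all tested genes (31.6% did not overlap in either direction). The same 3 had an unadjusted limma p under 0.05, as did 24.1% of all tested genes, with 9.64% of all tested genes lower in hCG at that level. Changes of the 7 had a median of -0.78, against 0.03 over all tested genes, with 5 below 0 and 2 above, and 44.2% of all tested genes were below 0. The plot of each gene on each array gives the values.

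**Figure D1:**
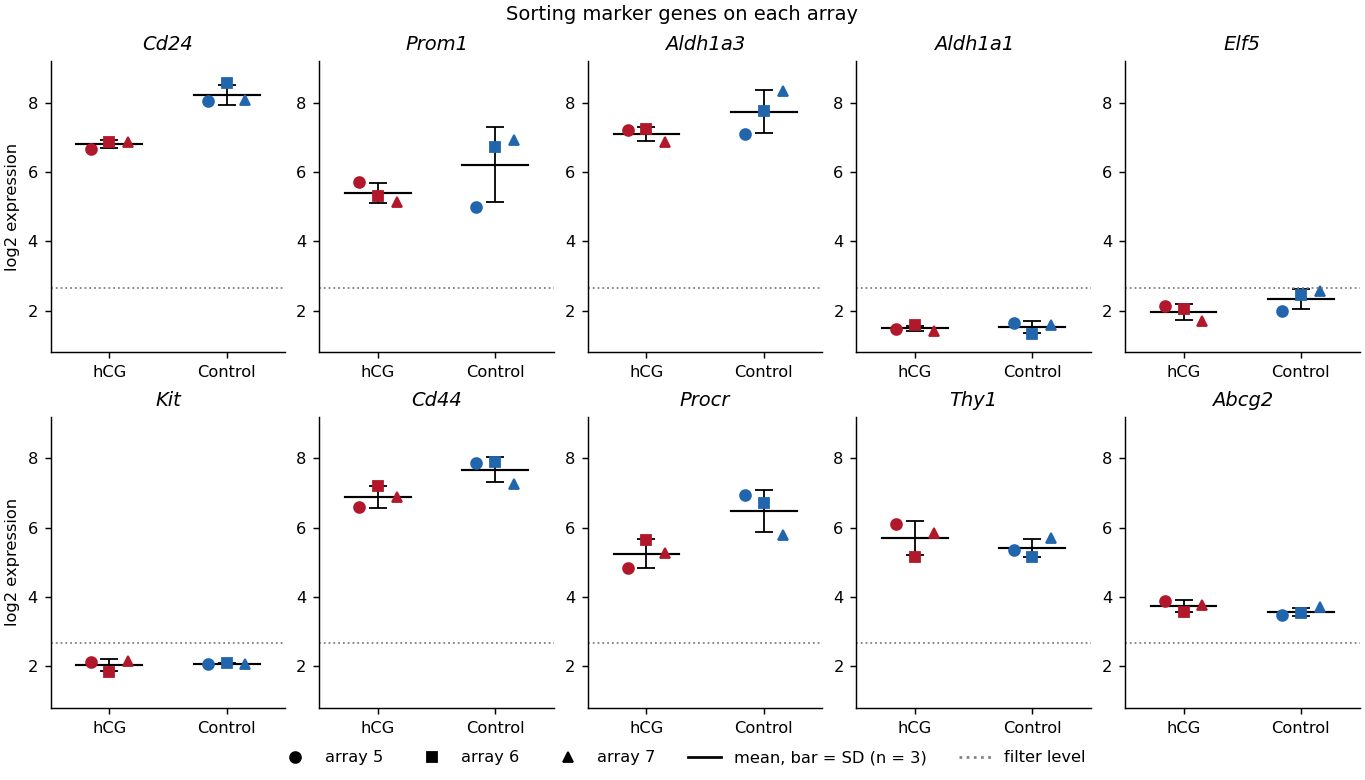
Log2 expression of each sorting marker gene in hCG (red) and Control (blue) spheres, 1 point per array with the array number as its shape, the mean as a line and the SD as a bar (n = 3). The dotted line is the filter level of 2.67. Cd24, Cd44 and Procr show no overlap between the groups, while Aldh1a1, Elf5 and Kit lie under the dotted line on every array.

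Cd24, a small lipid-anchored surface glycoprotein, had log2 values of 6.67, 6.86 and 6.87 in hCG spheres, against 8.04, 8.56 and 8.08 in Control spheres. All 3 hCG arrays were low and close together, and the nearest pair of values from the 2 groups was 1.17 log2 units (2.25-fold) apart. Among all tested genes, 13 (0.125%) were lower in hCG with a gap of at least 1 log2 unit between the groups. The group means were 6.80 ± 0.11 in hCG and 8.22 ± 0.29 in Control (SD, n = 3 each). The log2 change was -1.42 (SE 0.15), which is 2.68-fold lower in hCG, with a 95% confidence interval of 2.09- to 3.45-fold (limma adjusted p = 0.0289). By p it ranked 12 of 10424 genes.

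The call of Cd24 rested on most of the arrays together. With 1 array left out in turn its log2 change stayed between -1.52 and -1.26. It kept its call without hCG 6 (limma adjusted p = 0.0276) and without Control 7 (0.0184). It lost it without Control 5 (0.0639), Control 6 (0.102), hCG 5 (0.104) or hCG 7 (0.174), and in each of these 4 fits limma called 0 genes in all, with 1455 to 1950 at an unadjusted p under 0.05.

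Cd24 was not as low on Control 5 as the mean of other luminal genes. The mean level of 8 luminal markers (Krt8, Krt18, Krt19, Epcam, Cldn3, Cldn4, Cldn7 and Elf3), set to 0 at the Control mean, was -0.23, -0.47 and -0.62 on the hCG arrays, against -0.82, 0.12 and 0.70 on the Control arrays. The groups overlapped, because Control 5 was the lowest of all 6 arrays. By limma 0 of the 8 were called, with 0 at an unadjusted p under 0.05, against 24.1% of all tested genes. In 5 of the 8 markers Control 5 lay under all 3 hCG arrays, whereas Cd24 on Control 5 was 8.04, above every hCG value. Control 5 was still the lowest Control array in Cd24, as in 8 of the 8 markers. Relative to the luminal level of its own array, Cd24 was at -1.32, -0.90 and -0.73 on hCG arrays, against 0.64, 0.21 and -0.85 on Control arrays. On that scale Control 7 lay among the hCG arrays, so a difference from the luminal genes was not seen on every Control array. In RNA from whole spheres, fewer cells of a type and less RNA per cell cannot be told apart.

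Other measures moved with the groups as well. Bacterial poly-A transcripts added before labelling averaged 4.32, 4.90 and 4.31 over 24 probe sets on hCG arrays, against 5.43, 5.53 and 5.71 on Control arrays. Endothelial genes were higher on all hCG arrays, with a mean level of 1.31, 1.43 and 1.33, against -0.38, -0.14 and 0.51 on Control arrays. Of 12 listed endothelial markers 8 were tested, and 5 rose (Sox17, Esam, Emcn, Cd93 and Erg). Over all tested genes 1.01% rose. Without adjustment 8 of the 8 had a limma p under 0.05, against 24.1% of all tested genes. Sox17 passed the filter through the hCG arrays, with a Control mean of 2.23 below its level. Of 3 tested pericyte markers Rgs5 was called, at means of 3.13 in hCG and 2.47 in Control spheres, so it too passed the filter only through the hCG arrays. Without adjustment 2 of the 3 had a limma p under 0.05, against 24.1% of all tested genes. Besides Rgs5 this was Abcc9, whose Control mean of 2.59 also lay below the filter level. Of Schwann cell markers 0 of 3 were called, with 0 at an unadjusted p under 0.05, and all 4 adipocyte markers lay below the filter level. The part of these measures in the fall of Cd24 was not tested. Lymphocytes, which carry CD24 in rodents, had all 5 of their markers on the arrays below the filter level. Ptprc (CD45), a surface protein common to leukocytes, was lower in hCG spheres (change -1.09, limma adjusted p = 0.102). The part of lymphocytes in the fall of Cd24 was not tested.

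Prom1, the membrane protein CD133, had values of 5.71, 5.30 and 5.15 in hCG spheres, against 4.98, 6.73 and 6.93 in Control spheres. Control 5 was the lowest of all arrays, and the other two Control arrays were higher than every hCG array. The log2 change was -0.83 (SE 0.49, limma adjusted p = 0.354), with a 95% confidence interval from -1.99 to 0.34. This interval holds both a 2-fold fall and no change. Without Control 5 the change was -1.44 (adjusted p = 0.0639), and without Control 7 it was -0.47 (adjusted p = 0.572).

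Aldh1a3, an enzyme that makes retinoic acid and is one source of the activity measured by the Aldefluor assay, had values of 7.20, 7.25 and 6.88 in hCG spheres, against 7.11, 7.77 and 8.35 in Control spheres. Control 5 again lay among the hCG arrays, and Control 7 was the highest. The log2 change was -0.63 (SE 0.30, limma adjusted p = 0.252, 95% confidence interval -1.33 to 0.07). It ranged from -0.95 without Control 5 to -0.33 without Control 7. Relative to the luminal level of the same array, Aldh1a3 was at -0.31, -0.02 and -0.24 on hCG arrays, against 0.18, -0.09 and -0.09 on Control arrays. The Control SD on this scale was 0.16, and on the scale of the values it was 0.62. Prom1 on the same scale was at -0.27, -0.44 and -0.44, against -0.41, 0.39 and 0.01.

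**Figure D2:**
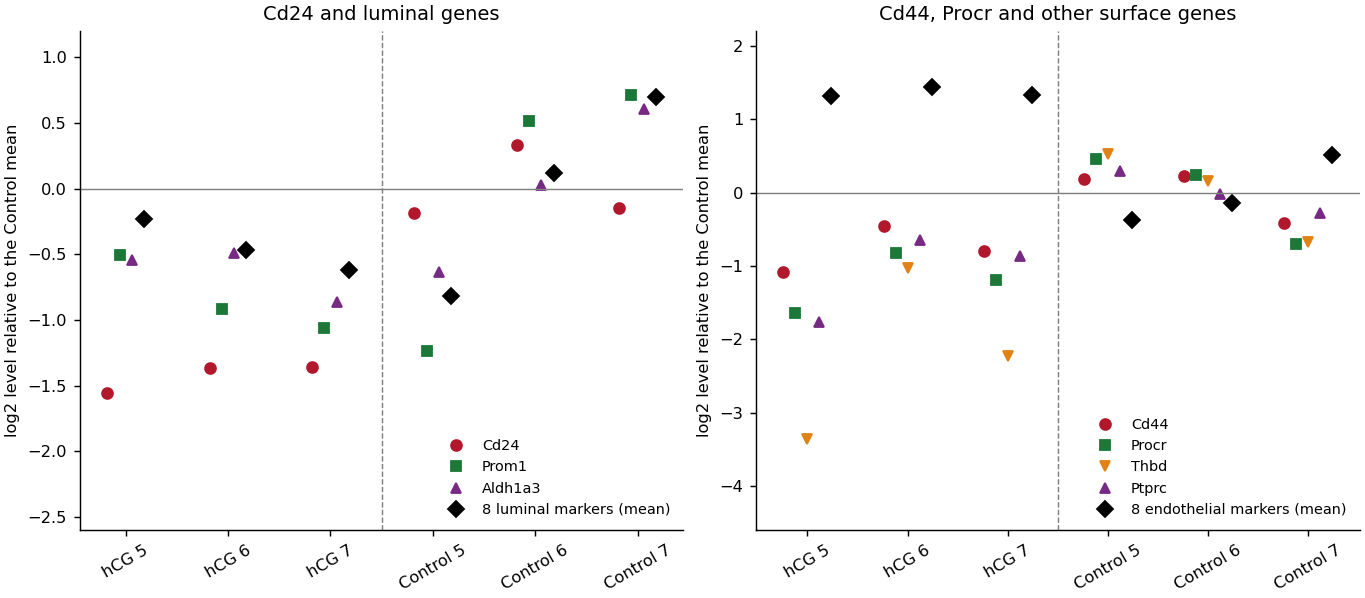
Log2 levels on each of the 6 arrays, relative to the Control mean, of Cd24, Prom1, Aldh1a3 and the mean of 8 luminal markers (left), and of Cd44, Procr, Thbd, Ptprc and the mean of 8 endothelial markers (right). On Control 5 the luminal mean is at -0.82 while Cd24 stays above all hCG arrays. Procr, Thbd and Ptprc have the same order of arrays, opposite in direction to the endothelial mean between the groups. How many of all tested genes share this order was not counted.

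The other 3 markers of luminal progenitors lay below the filter level and were tested in a fit without it. For scale, 10 of 11 genes of unrelated tissues, such as those of sperm and pancreas, were also below that level, with means from 1.00 to 2.52. The eleventh, the insulin gene Ins1, had a mean of 3.61, so a level near that does not by itself show expression. Elf5, the transcription factor that drives alveolar differentiation, had values of 2.13, 2.05 and 1.70 in hCG spheres, against 2.0, 2.46 and 2.56 in Control spheres. Its groups overlapped through Control 5, as those of Prom1 and Aldh1a3 did, with a change of -0.38 (SE 0.17, limma adjusted p = 0.271). Kit, the receptor for stem cell factor, had values of 2.12, 1.83 and 2.16 in hCG spheres, against 2.08, 2.10 and 2.07 in Control spheres, a change of -0.05 (SE 0.10). Aldh1a1, the other retinal dehydrogenase of the Aldefluor assay, had values of 1.48, 1.58 and 1.42 in hCG spheres, against 1.65, 1.33 and 1.59 in Control spheres, a change of -0.03 (SE 0.11). None of the 3 passed, and their means lay within that range of 1.00 to 2.52. Mast cells, another source of Kit, had 5 of 6 markers below the filter level as well.

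Cd44, the receptor for the matrix sugar hyaluronan, had values of 6.59, 7.21 and 6.88 in hCG spheres, against 7.86, 7.89 and 7.26 in Control spheres. The groups did not overlap, but hCG 6 and Control 7 were only 0.05 log2 units apart. The log2 change was -0.78 (SE 0.22, limma adjusted p = 0.107), with a 95% confidence interval from -1.30 to -0.26 before adjustment for the number of genes. A second probe set gave 6.27, 6.83 and 6.64 in hCG spheres, against 7.46, 7.51 and 6.72 in Control spheres. There the groups overlapped at hCG 6 and Control 7, and the change was -0.65 (SE 0.24). Both are annotated to Cd44 alone and both lay well above the filter level, and which splice forms each one reads is not given in the sources used here.

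Procr, the endothelial protein C receptor, which marks a stem cell-rich basal fraction in mice, had values of 4.84, 5.65 and 5.28 in hCG spheres, against 6.93, 6.72 and 5.78 in Control spheres. The groups were 0.13 log2 units apart at hCG 6 and Control 7. The log2 change was -1.22 (SE 0.33, limma adjusted p = 0.0984, 95% confidence interval -2.0 to -0.44), a size of 2.33-fold. Without Control 7 both genes passed, Procr at -1.57 (limma adjusted p = 0.0352) and Cd44 at -0.98 (0.0451). In that fit 584 genes passed, or 5.60% of those tested. With any other array left out neither gene passed. The limma adjusted p then ran from 0.0909 to 0.293 for Procr and from 0.082 to 0.309 for Cd44. The smallest changes were -0.99 for Procr (without Control 5) and -0.62 for Cd44 (without hCG 5).

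Cd44 and Procr had the same order over the lower 4 arrays: hCG 5, hCG 7, hCG 6 and Control 7. In Procr this order continued with Control 6 and Control 5. Thbd (thrombomodulin), which works with the protein C receptor on the vessel wall, had the same order over all 6 arrays, with 4.42, 6.75 and 5.55 in hCG spheres against 8.30, 7.94 and 7.10 in Control spheres. Its change was -2.20 (SE 0.58, limma adjusted p = 0.0941), and it was singled out after its values were seen. How many of all tested genes share this array order was not counted. In 12.3% of them every hCG value lay below every Control value. Procr is also carried by endothelium, whose markers were higher in hCG spheres. Relative to the endothelial level of its own array, Procr was at -2.94, -2.26 and -2.52 on hCG arrays, against 0.83, 0.39 and -1.21 on Control arrays. That level was itself higher on hCG arrays (1.31, 1.43 and 1.33), so subtracting it widens the gap whatever the source of Procr. The source was not tested.

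Leukocytes carry CD44 too. Their common surface protein Ptprc (CD45) had values of 2.07, 3.19 and 2.97 in hCG spheres, against 4.13, 3.81 and 3.55 in Control spheres, again in the array order of Procr. Its change was -1.09 (SE 0.30, limma adjusted p = 0.102), and its mean of 3.29 lay under the 3.61 of Ins1. The macrophage gene Cd68 had 6.06, 6.75 and 6.19, against 8.41, 7.25 and 7.31 (change -1.33, adjusted p = 0.0879), but macrophage markers did not share a direction. Of the 3 tested, Cd14 (-0.66) was lower in hCG spheres and Adgre1 (0.65, overlapping groups) was higher. The other 5 of the 8 markers lay below the filter level, and among these Mrc1 had 2.68, 3.49 and 3.92 in hCG spheres, against 2.16, 1.98 and 1.54 in Control spheres (change 1.47, limma adjusted p = 0.0595 without the filter). C1qa (0.59) did not overlap either, also as higher in hCG. The mean of the 3 tested macrophage markers ranged from -0.67 to -0.08 on hCG arrays and from -0.28 to 0.38 on Control arrays. Basal and myoepithelial markers, of which 6 of 8 were tested, ranged from 0.31 to 0.76 on hCG arrays and from -0.60 to 0.44 on Control arrays, with all 6 changes above 0. By limma 0 of the 6 were called, and 2 had an unadjusted p under 0.05, against 24.1% of all tested genes. The part of leukocyte, endothelial or basal markers in the values of Cd44 and Procr was not tested.

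Thy1, a surface glycoprotein of rat basal mammary cells that fibroblasts also carry, had values of 6.10, 5.16 and 5.86 in hCG spheres, against 5.37, 5.17 and 5.71 in Control spheres. The groups overlapped, with hCG 6 the lowest of all arrays and hCG 5 the highest. The log2 change was 0.29 (SE 0.25, limma adjusted p = 0.524, 95% confidence interval -0.31 to 0.90), and a dimmer probe set gave 0.25 (SE 0.27). That probe set had 3.92, 2.77 and 3.36 in hCG spheres, against 3.28, 2.97 and 3.02 in Control spheres, with hCG 5 again highest and hCG 6 lowest. The change was 0.10 without hCG 5 (limma adjusted p = 0.876) and 0.57 without hCG 6 (0.144). All 9 fibroblast markers were above the filter level, with 1 risen (Lum) and 1 fallen (Dpt), and their mean level was 0.27, 0.12 and 0.24 on hCG arrays, against 0.00, -0.05 and 0.05 on Control arrays. Over all tested genes 1.82% were called. Without adjustment 6 of the 9 had a limma p under 0.05, against 24.1% of all tested genes.

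Abcg2, the efflux pump of the side population, had values of 3.90, 3.57 and 3.76 in hCG spheres, against 3.48, 3.54 and 3.71 in Control spheres. These overlapped, and their mean of 3.66 was close to the 3.61 of Ins1. The change was 0.17 (SE 0.11, limma adjusted p = 0.420, 95% confidence interval -0.11 to 0.44), which leaves a rise of up to 0.44 and a fall of up to 0.11 within the interval. In the plot of the changes with their intervals, Abcg2 is the narrowest of the 7 tested genes and Prom1 the widest.

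**Figure D3:**
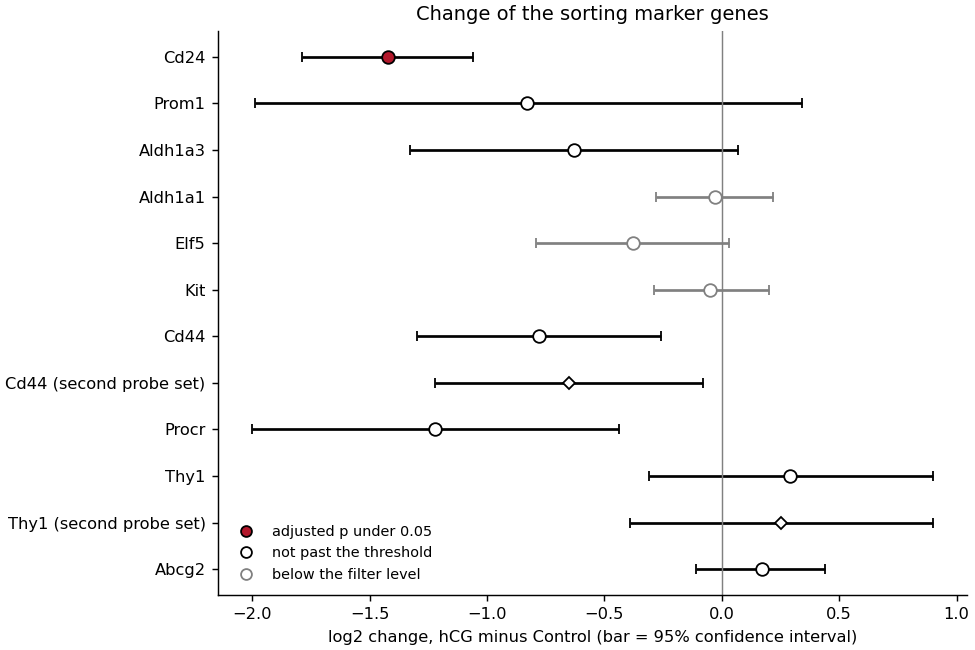
Log2 change, hCG minus Control, of each sorting marker gene with its 95% confidence interval, including the second probe sets of Cd44 and Thy1 (diamonds). The filled point, Cd24 at -1.42, passed at an adjusted p under 0.05. Grey points lie below the filter level.

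The combination of high CD44 with low CD24 is a sorting gate for tumour-initiating human breast cells. In these spheres Cd44 was not higher but lower on every hCG array (change -0.78, not called). Since Cd24 fell by more, the Cd44 minus Cd24 difference, set to 0 at the Control mean, was higher in hCG spheres. It was at 0.47, 0.91 and 0.56, against 0.38, -0.11 and -0.26 in Control spheres. The higher difference thus came with a fall of Cd24 and without a rise of Cd44. The groups did not overlap, but hCG 5 (0.47) and Control 5 (0.38) were close. Of all tested genes, taken singly, 31.6% did not overlap in either direction, and the share among pairs of genes was not counted. The Cd44 minus Cd24 difference compares mRNA values of whole spheres and carries no test.

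**Figure D4:**
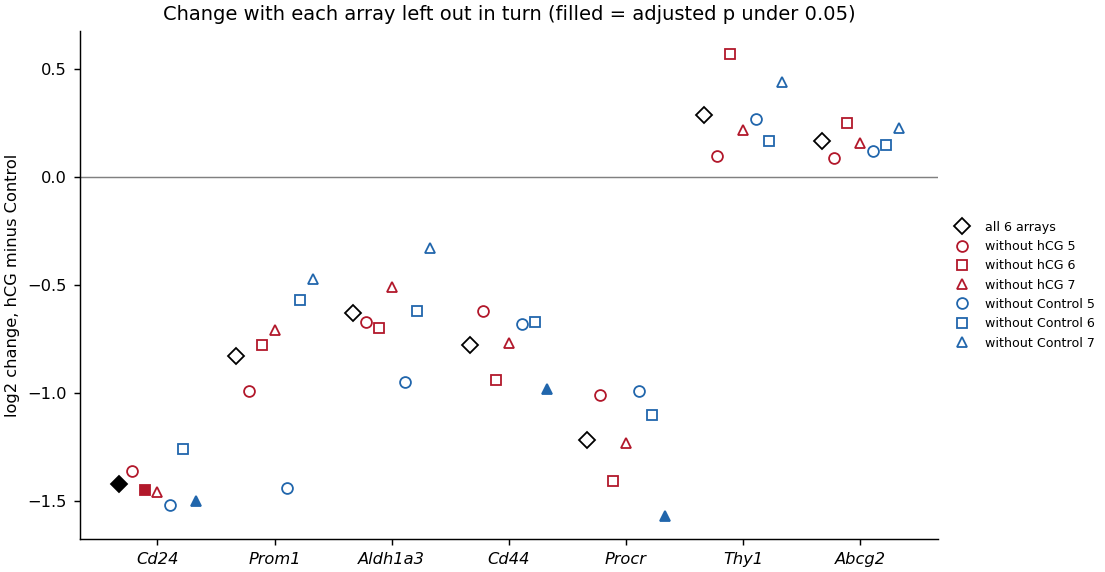
Log2 change, hCG minus Control, of the 7 tested genes with all 6 arrays and with each array left out in turn (red, an hCG array; blue, a Control array). Filled symbols passed at an adjusted p under 0.05. Cd24 stays between -1.52 and -1.26, while Prom1 spans -1.44 to -0.47 and Cd44 and Procr pass without Control 7.

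The 5 tested genes whose 6 values lay closest to those of Cd24, each taken relative to its own mean, were Adam33, Wnt2, Cd83, Hist4h4 and Gchfr, with root mean square differences of 0.12 to 0.22 log2 units. Adam33, a membrane metalloproteinase, had 4.15, 4.16 and 4.38 in hCG spheres, against 5.37, 5.82 and 5.22 in Control spheres. Its change was -1.24 (SE 0.16, limma adjusted p = 0.0368). Wnt2, a secreted Wnt ligand, had a change of -1.42 (adjusted p = 0.0473), and Cd83, a surface protein of activated dendritic cells and lymphocytes, one of -1.28 (adjusted p = 0.0289). Hist4h4, a histone gene, and Gchfr, a regulator of biopterin synthesis, had changes of -1.59 and -1.12 (adjusted p = 0.0328 and 0.0341). All 5 fell, and in each of them, as in Cd24, no hCG value reached a Control value. They were picked for likeness to Cd24, so their direction follows from the choice.

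Other surface proteins used to sort mammary cells gave 0 calls among 14 tested genes of 18 listed, with a median change of -0.21, against 0.03 over all tested genes. By limma without adjustment 7 of the 14 had p under 0.05, against 24.1% of all tested genes. Lrig1, a negative regulator of EGF receptors that marks quiescent stem cells in several epithelia, had the smallest p. It had 8.72, 8.08 and 8.48 in hCG spheres, against 7.57, 7.70 and 7.70 in Control spheres, with a change of 0.77 (SE 0.16, limma adjusted p = 0.0622). Cd14, a lipopolysaccharide co-receptor carried by luminal progenitors and macrophages, had a change of -0.66 (SE 0.21, adjusted p = 0.125). Integrin Itgb1 (CD29), the usual partner of CD24 in sorting, had 10.51, 10.65 and 10.65, against 10.56, 10.52 and 10.46, and Itga6 (CD49f) had a change of 0.88 (SE 0.28, adjusted p = 0.125). The luminal surface protein Epcam overlapped widely, at 7.17, 7.06 and 6.90 in hCG spheres against 6.36, 7.62 and 7.97 in Control spheres.

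Among surface proteins used to gate blood and endothelial cells away, 3 of 6 were tested and 1 rose, Icam2, an adhesion protein of endothelium. It had 4.97, 4.85 and 4.85 in hCG spheres, against 3.01, 2.88 and 3.80 in Control spheres, with a change of 1.66 (SE 0.23, limma adjusted p = 0.0368). Pecam1 (CD31) had 1.61 (SE 0.37, adjusted p = 0.0711), and Ptprc is given above. Without adjustment 3 of the 3 had a limma p under 0.05. Over all tested genes 24.1% did so, and 1.82% were called. The cells behind these sphere libraries were enriched for epithelium, and the labels name no such gate.

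Luminal progenitor and alveolar genes gave 1 fall and 0 rises among 13 tested of 18 listed, with a median change of -0.35. Over all tested genes 1.82% were called. Without adjustment 4 of the 13 had a limma p under 0.05, against 24.1% of all tested genes. The fallen gene, Lbp, encodes the lipopolysaccharide-binding protein that hands its ligand to CD14. It had 3.43, 2.89 and 2.69 in hCG spheres, against 4.81, 5.20 and 5.34 in Control spheres, a change of -2.12 (SE 0.22, limma adjusted p = 0.0289). Notch1, a receptor of luminal fate, had a change of 0.71 (SE 0.13) at an adjusted p of 0.05004, just over the threshold, and it passed without Control 7 and without hCG 6. Basal and stem associated regulators gave 0 calls among 11 tested of 15 listed, with a median of 0.00. By limma without adjustment 0 of the 11 had p under 0.05, against 24.1% of all tested genes. This list was dim, however. Its 12 genes with a probe set had a median level of 3.20, under the 3.61 of Ins1, so changes could be missed. The smallest p belonged to the Notch ligand gene Jag1, with a change of 0.41 (SE 0.17), and to Tp63, the basal master regulator, with 0.33 (SE 0.18). Tp63 had a mean of only 2.91.

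Aldehyde dehydrogenases other than the 2 sorting markers gave 2 falls and 1 rise among 12 tested of 18 listed, with a median change of -0.32. Over all tested genes 1.82% were called. Without adjustment 9 of the 12 had a limma p under 0.05, against 24.1% of all tested genes. Aldh1l1, the cytosolic formyltetrahydrofolate dehydrogenase, had 4.51, 4.73 and 4.65 in hCG spheres, against 5.50, 5.37 and 5.43 in Control spheres. It fell by 0.81 on the log2 scale (SE 0.09, limma adjusted p = 0.0294). Aldh1l2, its mitochondrial counterpart, rose by 0.96 (SE 0.15, adjusted p = 0.0383), with 8.02, 7.44 and 7.82 in hCG spheres, against 6.70, 6.91 and 6.78 in Control spheres. The pair of folate enzymes thus moved in opposite directions, with no overlap between groups in either. Aldh2, the mitochondrial acetaldehyde enzyme, fell by 0.78 (SE 0.13, adjusted p = 0.0443), a call that was lost without hCG 6 too (0.0649). Aldh1a2, the third retinal dehydrogenase, was singled out after its values were seen. It had 4.45, 5.46 and 5.20 in hCG spheres, against 5.99, 5.87 and 6.35 in Control spheres, a change of -1.03 (SE 0.26, adjusted p = 0.0884).

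Genes of retinoid handling and the retinoid receptors gave 0 calls among 12 tested of 15 listed, with a median of -0.15, and 4 of the 12 had an unadjusted p under 0.05 by limma, against 24.1% of all tested genes. The retinol dehydrogenase Rdh5 had 2.32, 3.46 and 1.98 in hCG spheres, against 5.42, 4.87 and 3.75 in Control spheres. Its fitted change was -2.09 (SE 0.51, limma adjusted p = 0.0823), but its hCG mean of 2.59 lay below the filter level, which it passed only through the Control arrays. Crabp2, which carries retinoic acid to its receptors, had one of 0.79 (SE 0.26, adjusted p = 0.132).

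ABC transporters other than Abcg2 gave 3 falls and 0 rises among 8 tested of 10 listed, with a median change of -0.33. The list holds drug efflux pumps and also lipid exporters such as Abca1 and Abcg1. Over all tested genes 0.815% were called as lower and 1.01% as higher. Without adjustment 4 of the 8 had a limma p under 0.05, against 24.1% of all tested genes. All 3 fallen genes belong to the multidrug resistance-associated protein family. Abcc4, which exports cyclic nucleotides and prostaglandins, had 3.71, 4.13 and 4.02 in hCG spheres, against 4.66, 4.64 and 4.69 in Control spheres (change -0.71, SE 0.12, limma adjusted p = 0.0439). Abcc5 fell by 0.86 (SE 0.15, adjusted p = 0.0461), and Abcc1, which exports glutathione conjugates, by 0.56 (SE 0.10, adjusted p = 0.0493). These calls were close to the threshold: with 1 array left out in turn the count ran from 0 (without Control 5, Control 6, hCG 5 or hCG 7) to 4 (without Control 7, with Abca1 added). Without hCG 6 it was 3, with Abca1 called and Abcc1 not (0.0628). Abcb1a, the P-glycoprotein gene that also pumps the side population dye, had a change of 0.07 (SE 0.12), near that of Abcg2. Its mean of 3.05 lay under the 3.61 of Ins1, so expression is not shown by it.

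Ligands and partners of the sorting markers gave 0 calls among 15 tested of 21 listed, with a median of -0.04, and 5 of the 15 had an unadjusted p under 0.05 by limma, against 24.1% of all tested genes. The clotting initiator F3 had 6.96, 6.68 and 6.75 in hCG spheres, against 5.90, 6.28 and 6.13 in Control spheres, a change of 0.70 (SE 0.13) at an adjusted p of 0.05004, just over the threshold. Rdx, a linker between CD44 and the cell cortex, had 0.35 (SE 0.08, limma adjusted p = 0.0699). Kitlg, the ligand of Kit, had 6.68, 6.53 and 6.68, against 7.03, 6.77 and 6.49, with overlapping groups (change -0.13, SE 0.14). The plot of the related lists shows the spread in each.

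**Figure D5:**
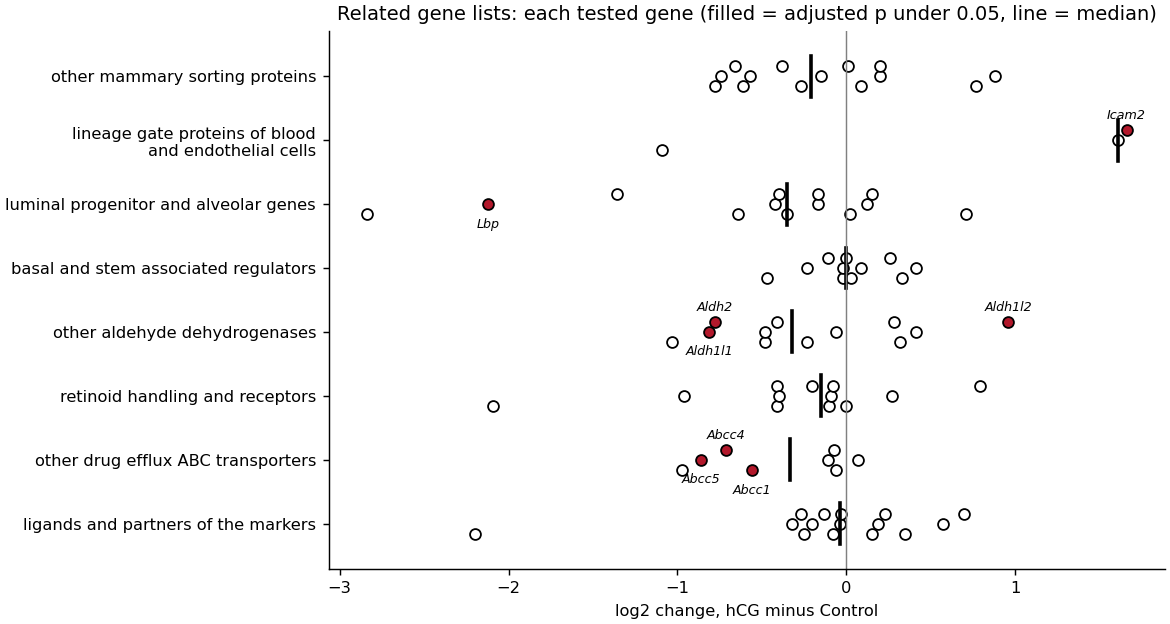
Log2 change, hCG minus Control, of every tested gene in 8 lists related to the sorting markers, 1 point per gene, with the list median as a line. Filled and named points passed at an adjusted p under 0.05. Lbp, Aldh1l1, Aldh2, Abcc1, Abcc4 and Abcc5 fell, and Aldh1l2 and Icam2 rose.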

How the data were processed

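The authors deposited 1 log2 value for each of 31099 probe sets on each of 6 Affymetrix arrays. RMA, MAS5 and limma appear in the submitters' processing notes without stated roles. Log2 and normalization between arrays were inferred from the values (0.74 to 13.1, medians 3.44 to 3.48), and a shift common to most genes would be hidden by it. Labelling used 2 amplification rounds, per the labels' protocols.

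Control probe sets (57) and the dimmest 40% by mean over all arrays were left out, leaving 18625. Genes came from the platform annotation, updated by Entrez number (20758 of 20826 probe sets with 1 gene), named with the GRCr8 RefSeq table. Groups were compared by lmFit and eBayes of limma 3.58.1 (R 4.3.3), two-sided, without a block, with Benjamini-Hochberg adjustment over 10424 genes, each by its brightest probe set. The threshold was an adjusted p under 0.05. The fit was tested on simulated data with 200 of 18625 probe sets changed. At a change of 1 log2 unit it recovered 179, with 16 false calls, and at 2 units 199, with 8. The simulated noise was independent between values, so shifts shared by the genes of an array were not covered.

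The members and the 19 gene lists were chosen with earlier results of these data known. Genes named were the 10 members, the 5 most like the member of smallest p, the called and the 2 smallest p of each related list, and marker genes that a result turns on. Others, named as examples, were chosen after their values were seen. Only 6 arrays limit the precision, with 4 residual degrees of freedom.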

Additional observations from a re-analysis of the deposited data

How the results depend on the processing

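With all 6 arrays, 1 of the 7 tested sorting markers passed (Cd24) and 190 genes in all. The counts were 3 (with Cd44 and Procr) and 2663 with array weights, 2 (with Procr) and 844 at an adjusted p under 0.10, and 1 and 306 with a variance trend. With 1 array left out in turn they ran from 0 to 3 and from 0 to 584. The array numbers 5, 6 and 7 were not taken to pair the groups, since deviations of same-numbered arrays correlated at -0.087, 0.131 and 0.002. With the number as a replicate block, 1 sorting marker (Cd24, limma adjusted p = 0.0450) and 118 genes passed, while Abcc1, Abcc4, Abcc5, Aldh1l2, Adam33, Esam, Erg and Rgs5 did not (0.0511 to 0.0975) and Abca1 did. No filter, a 60% filter, median centring, quantile or cyclic loess normalization, a robust prior, averaging the probe sets of each gene, and adjustment over all probe sets (added after seeing the data) kept Cd24 as the 1 sorting marker called, with 159 to 267 genes in all. Directions reversed for Aldh1a1 without Control 5 (0.03), Control 7 (0.00) or hCG 7 (0.01), within a leave-one-out range of -0.13 to 0.03, and for Kit without hCG 6 (0.06), within -0.11 to 0.06. Other named calls moved in some of these settings. Abcc1 was lost with median centring, Abcc1 and Erg with a robust prior, and Abcc5 and Dpt with averaging. Lbp, Icam2, Abcc4, Sox17, Erg, Rgs5 and Dpt were not called with the 60% filter. Adjusted over all probe sets, Abcc1, Erg (both 0.0513) and Wnt2 (0.0502) did not pass by limma. Notch1 and F3 passed with no filter, the 60% filter, median centring and averaging. The cause of these shifts was not tested. The planned log2 step for linear values was not needed. Elf5, Kit and Aldh1a1 lay below the filter level.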
